A study of Drosophila melanogaster with 6 samples.

Results

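The genes described here have a CG number, a systematic Drosophila gene name, as their current symbol. Their transcripts were lower in every array of embryos overexpressing sage than in any control array. RefSeq lists descriptive synonyms for some of these genes. A probe set was a member when the platform annotation gave it exactly 1 gene, that gene's current symbol was CG plus digits, the lowest control value exceeded the highest sage overexpression value by at least 1 log2 unit (a gap of 2-fold or more), and the 3 control values lay within 0.6 log2 units of each other. In all, 99 probe sets met the rule, of 5667 probe sets with a CG symbol and 18769 tested. They stood for 96 genes, of 11982 named on the array, and all 96 were annotated as protein coding. The values that chose the members are the same values that compare the groups, so the size and direction of their differences are given as a description, with no test.

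The arrays measured RNA of whole Drosophila melanogaster embryos of stages 11 to 16. Embryos had been kept at 25 C and passed through a COPAS biosorter, an instrument that sorts embryos one at a time. Per the labels, control embryos were matched in age and handled in the same way. Markers of late differentiation, given below, differed among the control arrays. The sage overexpression group (3 arrays) carried UAS-Sage driven by tub-Gal4, and the control group (3 arrays) came from the tub-Gal4 strain alone. Both groups therefore carry the tub-Gal4 driver, which is active in most cells, so the comparison concerns Sage far outside the salivary gland where it is normally made. Nothing in the labels tells whether arrays of 1 group stem from separate collections of embryos. The p-values therefore reflect only array-to-array spread, which may be technical, and the number of arrays limits the precision. Values were log2 signals, for which 1 unit is a 2-fold step.

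As background, Sage, a helix-loop-helix protein that binds DNA, belongs to the embryonic salivary gland, where it works together with the forkhead factor Fkh. RNA in an embryo comes from the maternal store laid down in the egg and from the embryo's own transcription, and the maternal store is cleared as development goes on. A lower signal in RNA of whole embryos can come from fewer cells that hold a transcript or from less of it per cell, and these cannot be told apart here.

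The sage transcript itself averaged 12.47 ± 0.07 in the overexpression arrays and 7.52 ± 0.14 in the control arrays (SD, n = 3 each), a difference of 4.96 with an adjusted p of 1.96e-05 by limma. Across all probe sets, limma called 1774 lower with sage, or 9.45%. That count was 934 without Sage replicate 3, 1159 without Sage replicate 1 and 1178 without Sage replicate 2. The control arrays were less alike than the Sage arrays. Pearson's r, taken over all tested probe sets (features that are not independent of each other), ran from 0.989 to 0.996 between Sage arrays and from 0.938 to 0.987 between control arrays. The rule kept only probe sets with steady controls. Over the 99 members alone, r ran from 0.972 to 0.992 between Sage arrays and from 0.989 to 0.995 between control arrays.

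Most of the members were bright in the control embryos and, at a lower level, remained above the array median with sage. The rule needs controls at least 1 unit above the Sage arrays, so it favours probe sets that are bright in controls. Probe sets with other symbols that met the same limits had a median control signal of 9.73. The mean log2 signal of the members ranged from 4.24 to 11.03 over the Sage arrays, with a median of 7.07, against 5.52 to 12.54, with a median of 9.04, over the control arrays. The median over all tested probe sets was 5.73 with sage and 5.68 in controls. The median difference of the members was -1.77, or 3.40-fold lower, and the median difference of all tested probe sets was 0.0003. Differences of the members ran from -4.24 to -1.07, with 6 members at least 8-fold lower and 32 at least 4-fold lower. All 99 were called lower by limma, beside 9.45% of all probe sets. Since the rule used the same contrast, nothing follows from that count.

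**Figure D1:**
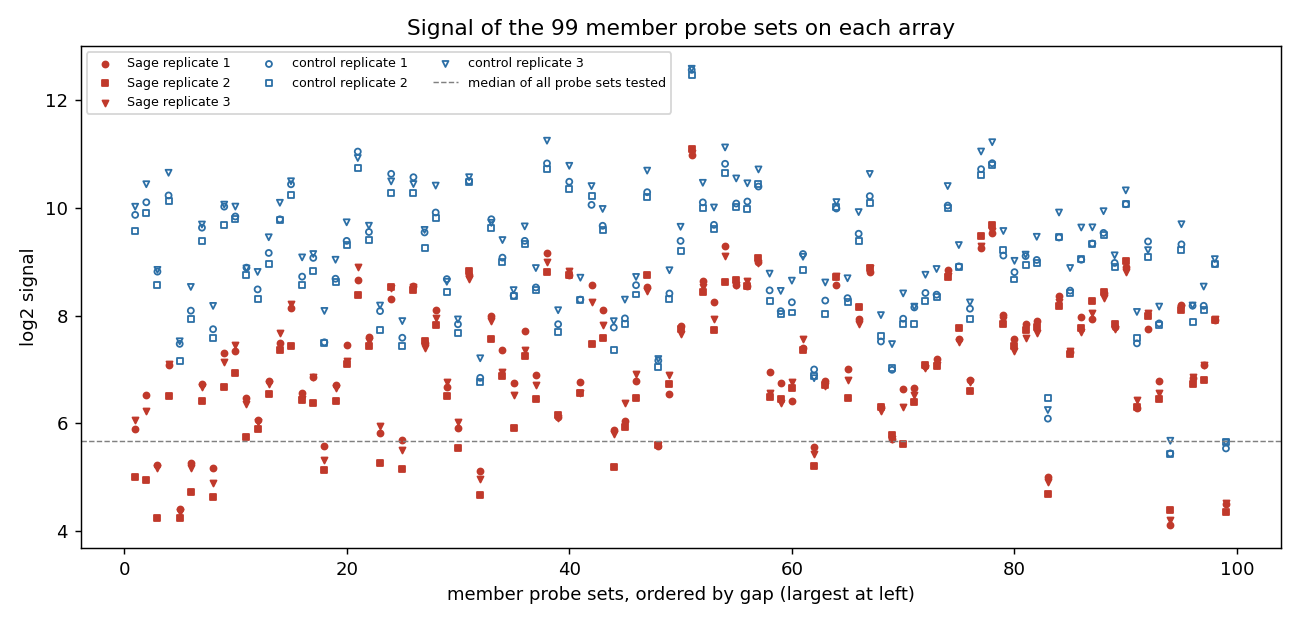
Log2 signal of the 99 member probe sets (y axis) on each of the 6 arrays, with the members ordered by gap from left to right; filled red marks are Sage arrays, open blue marks are control arrays and the dashed line is the median of all tested values. Of the 99 members, 80 stayed above the array median on all 3 Sage arrays and 12 did not exceed it on any of them.

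The widest separation was that of CG4911, for which RefSeq lists the synonym FBXO4, in mammals an F-box protein that recruits substrates to a ubiquitin ligase. CG4911 had log2 signals of 5.90, 5.003 and 6.06 in Sage replicates 1, 2 and 3, against 9.87, 9.57 and 10.02 in control replicates 1, 2 and 3. The highest Sage array lay 3.52 below the lowest control array, and the log2 difference of the means was -4.17.

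CG3679 had the largest mean difference of the members, 18.9-fold lower with sage. Its signals were 6.52, 4.96 and 6.24 in the Sage arrays, against 10.11, 9.90 and 10.44 in the control arrays. Sage replicate 2 was low by over 1 unit in both CG4911 and CG3679 relative to the highest Sage array, while the groups stayed at least 3 units apart.

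CG5568 measured 5.24, 4.24 and 5.17 in the Sage arrays and 8.82, 8.57 and 8.85 in the control arrays. It was 14.6-fold lower, and all 3 Sage arrays were below the array median. CG8173 measured 7.09, 6.51 and 7.10 with sage, against 10.23, 10.12 and 10.65 in controls. This was a 10.8-fold difference, yet the Sage arrays remained above the array median.

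CG11263 had the most even Sage values of the 6 members that were at least 8-fold lower. Its Sage signals of 4.42, 4.25 and 4.35 were near the low end of the array, where differences are compressed, against 7.48, 7.15 and 7.53 in the control arrays, an 8.26-fold difference. CG6425 measured 5.27, 4.73 and 5.18 with sage and 8.09, 7.94 and 8.53 in controls, and was 8.75-fold lower.

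The next 6 members by gap lay between 5.81-fold and 7.81-fold lower. CG4880 averaged 6.60 ± 0.17 with sage and 9.57 ± 0.17 in controls (SD, n = 3 each). CG31517 averaged 4.91 ± 0.27 with sage and 7.84 ± 0.31 in controls, and CG12112 averaged 7.04 ± 0.33 with sage and 9.92 ± 0.21 in controls (SD, n = 3 each). In CG12112 the Sage arrays stayed well above the array median, and in CG31517 they were below it. CG12129 averaged 7.24 ± 0.26 with sage and 9.89 ± 0.12 in controls, and CG4408 averaged 5.997 ± 0.09 with sage and 8.54 ± 0.26 in controls (SD, n = 3 each). CG11307, which RefSeq also lists as moto, averaged 6.19 ± 0.39 with sage and 8.84 ± 0.08 in controls (SD, n = 3 each).

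**Figure D2:**
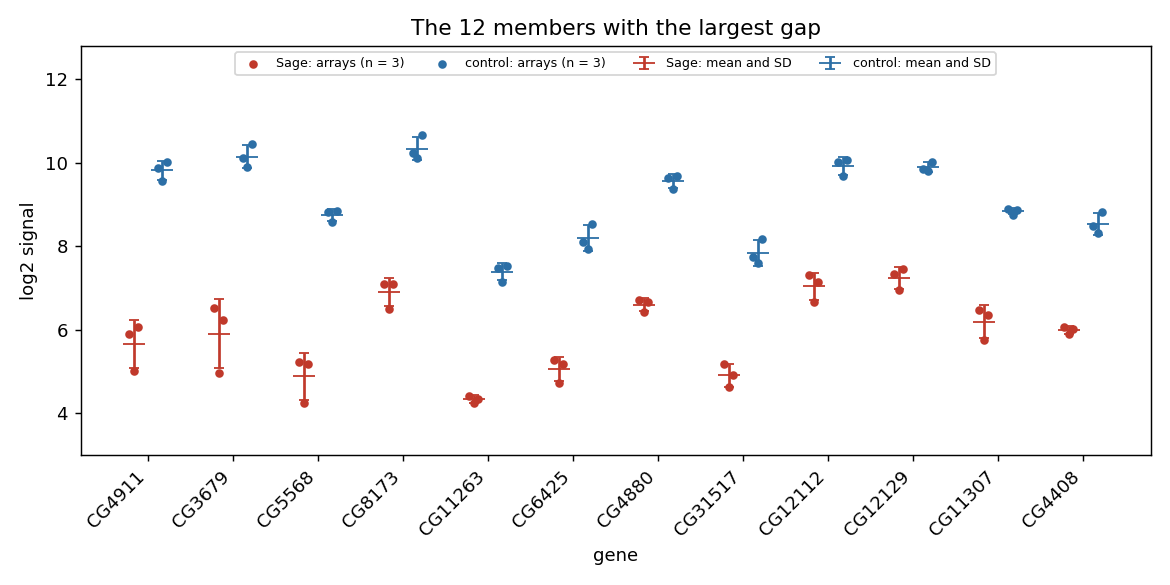
Log2 signal (y axis) of the 12 members with the largest gap, Sage arrays in red at left and control arrays in blue at right for each gene; points are arrays and bars are the mean and SD (n = 3). In each of the 12 genes Sage replicate 2 is the lowest Sage array and control replicate 2 the lowest control array.

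For most of the 96 genes the annotation used here gives no function. Among the 96 are 12 described here for their RefSeq synonym. For 9 of these a role is given as background, and for 3 (CG11307, CG2924 and CG32095) none is given here. They were picked by that synonym, not by the size of their difference, and no shared role was tested.

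Besides CG4911, a member tied to ubiquitin by name was CG15141, listed as UBR7, which in mammals belongs to the UBR-box family of ubiquitin ligases. CG15141 measured 8.64, 8.44 and 8.54 with sage, against 10.10, 10.002 and 10.47 in controls, and was 3.14-fold lower. It stayed above the array median in both groups.

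A pair of members bears names from phosphoinositide metabolism, which marks the membranes of endosomes and lysosomes. CG5026 is listed as MTMR9, in mammals a myotubularin-related protein without phosphatase activity that binds active family members. CG5026 measured 6.79, 6.54 and 6.72 with sage, against 9.17, 8.96 and 9.46 in controls, and was 5.69-fold lower. CG5608 is listed as Vac14, the scaffold of the lipid kinase complex that makes phosphatidylinositol bisphosphate on endosomes and vacuoles. CG5608 measured 6.78, 6.47 and 6.92 with sage, against 8.57, 8.39 and 8.72 in controls, and was 3.57-fold lower.

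Others bear names from the handling of DNA and RNA. CG12728 is listed as XRCC4 and XLF1, names of partner proteins in the joining of broken DNA ends. It measured 5.58, 5.14 and 5.33 with sage, below the array median, against 7.51, 7.497 and 8.09 in controls, and was 5.09-fold lower. CG12877 is listed as REXO1, an RNA exonuclease name, and averaged 6.76 ± 0.27 with sage and 8.42 ± 0.24 in controls (SD, n = 3 each). CG3704 is listed as XAB1, in mammals a GTPase also known for its part in the nuclear import of RNA polymerase. CG3704 averaged 8.40 ± 0.06 with sage and 9.66 ± 0.24 in controls (SD, n = 3 each), a 2.40-fold difference.

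Among enzymes by name, CG17746 is listed as PP2C, a family of metal-dependent protein phosphatases, and was 2.75-fold lower. CG2493 is listed as Prcp, in mammals a lysosomal carboxypeptidase that cleaves after proline, and was 2.54-fold lower. CG17746 averaged 8.86 ± 0.04 with sage and 10.32 ± 0.28 in controls, and CG2493 averaged 8.27 ± 0.09 with sage and 9.61 ± 0.26 in controls (SD, n = 3 each). In both genes the Sage arrays lay closer together than the control arrays. With no role given here, CG2924, listed as NICE5, averaged 8.10 ± 0.56 with sage and 10.23 ± 0.17 in controls, and CG32095, listed as DPLG3, averaged 7.62 ± 0.14 with sage and 9.04 ± 0.23 in controls (SD, n = 3 each).

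The members differed in how low they went with sage. In 12 members all 3 Sage arrays were at or below the array median, and their control means ran from 5.52 to 8.75. Beside CG5568, CG11263, CG6425, CG31517 and CG12728 these were CG3919, CG1971, CG31674, CG31759, CG9270, CG14502 and CG43064. Differences of such dim transcripts are compressed, and CG9270, CG14502 and CG43064 were the members below the median of all tested values when averaged over the 6 arrays, so that 96 of the 99 probe sets passed a filter on dim signal. At the other end, 24 members had a control mean above 10, with Sage means from 5.91 to 11.03 and a median difference of -1.77. The brightest was CG1943, which measured 10.99, 11.10 and 11.02 with sage and 12.56, 12.47 and 12.59 in controls, 2.84-fold lower.

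Values close to the limits show how the rule separates genes that behave much alike. The members with the smallest gap were CG43064 (1.01), CG31111 (1.02), CG11141 (1.02) and CG10702 (1.02). The nearest probe sets outside were those of CG17806 (0.99), CG14229 (0.98) and CG31457 (0.97). CG17806 had a mean difference of -1.5003, against -1.07 in CG31111, and its Sage arrays (6.64, 5.95 and 6.27) were more widely spread. The widest control ranges among members were those of CG6171 (0.599), CG6425 (0.595), CG32756 (0.594) and CG31517 (0.593), and the narrowest outside were those of CG42240 (0.604), CG31898 (0.611) and CG44005 (0.615). CG31898 and CG44005 differed by -3.26 and -3.46, as much as the leading members. With no limit on the control range, 146 CG probe sets had a gap of at least 1, and the 47 that the limit removed had a median difference of -1.95.

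**Figure D3:**
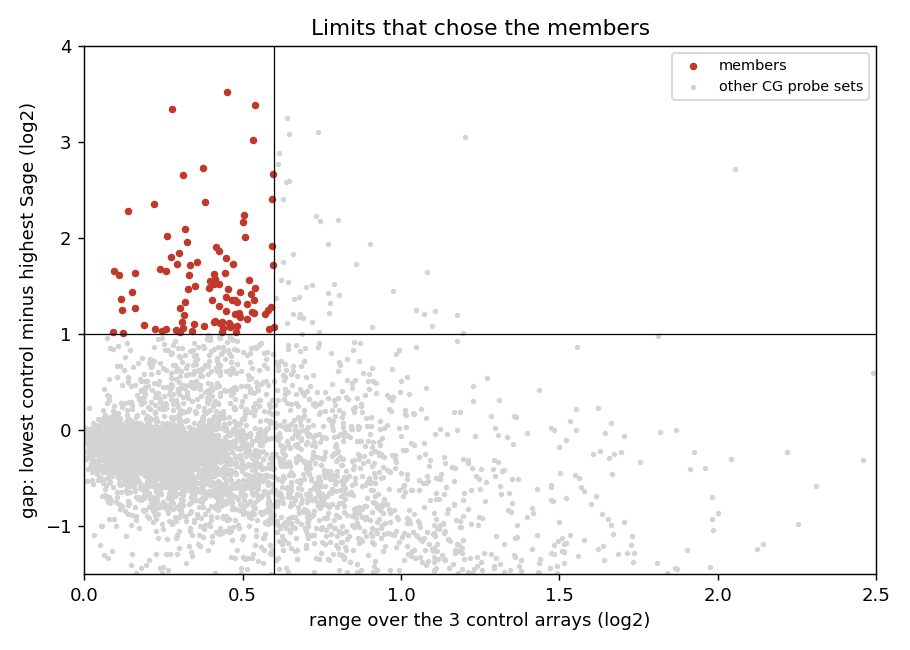
Range over the 3 control arrays (x axis, log2) against the gap between the lowest control and the highest Sage array (y axis, log2) for probe sets with a CG symbol; red points are the 99 members and lines mark the limits of 0.6 and 1. Probe sets continue on the far side of both lines without a break; those with a gap under -1.5 or a control range over 2.5 are not drawn.

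The order of the arrays inside each group was not fixed by the rule. The lowest Sage array was replicate 2 in 62 of the 99 members, replicate 3 in 21 and replicate 1 in 16, and replicate 2 was the highest in 19. Among all tested probe sets with steady controls, a set not matched to the members in signal level, Sage replicate 2 was the lowest in 26.5% and the highest in 50.2%. In 21 members the Sage arrays spread over more than 0.5 units, and in all 21 Sage replicate 2 was the lowest. CG17129, outside the 12 largest gaps, had the same form, at 6.64, 5.61 and 6.31 with sage, against 7.94, 7.84 and 8.41 in controls. By contrast, 16 members had Sage values within 0.1 unit of each other, among them CG31111 at 7.91, 7.91 and 7.94 with sage, against 8.96, 8.96 and 9.05 in controls, and CG31674 at 5.58, 5.60 and 5.61 with sage, against 7.17, 7.05 and 7.20 in controls.

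In the controls 1 array was highest and another lowest in most members. Control replicate 3 was the highest control array in 88 of the 99 members, and control replicate 2 the lowest in 87. The median deviation from the mean of the controls was 0.24 for control replicate 3, -0.17 for control replicate 2 and -0.07 for control replicate 1. Among all 13991 tested probe sets with control ranges inside the same limit, control replicate 3 was highest in 61.4% and control replicate 2 lowest in 34.3%. Those probe sets were not matched to the members in signal level.

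**Figure D4:**
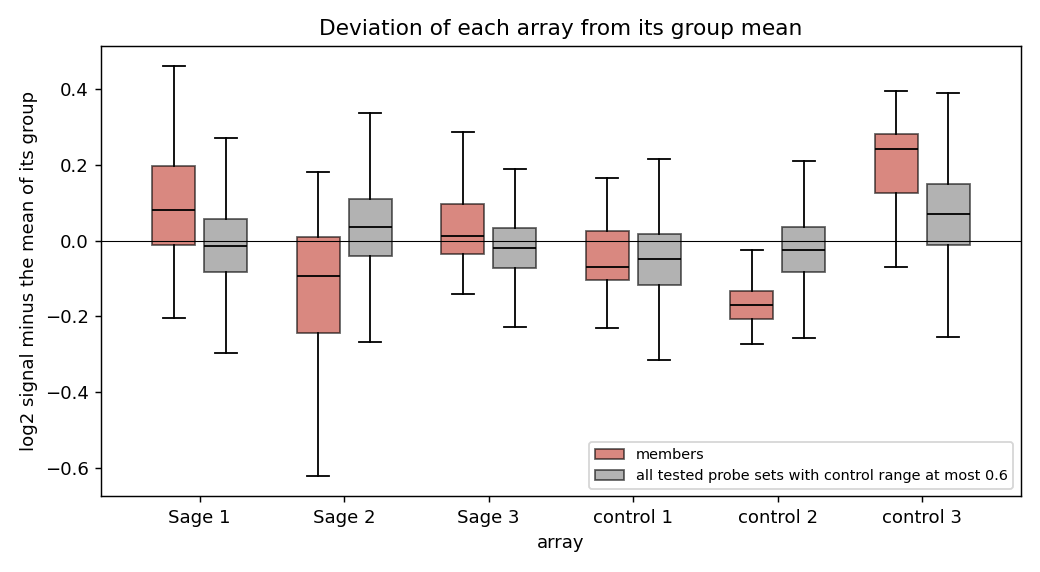
Log2 signal minus the mean of the same group (y axis) for each array (x axis), as boxes of the median, quartiles and whiskers to 1.5 times the quartile range, without outlying points; red boxes are the 99 members and grey boxes all tested probe sets with a control range of at most 0.6. The members sit low in Sage replicate 2 (median -0.09) and control replicate 2 (-0.17) and high in control replicate 3 (0.24), whereas the medians of the grey boxes stay between -0.05 and 0.07. The grey set was not matched to the members in signal level.

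Several members were measured by more than 1 probe set. CG9062, CG17490 and CG30022 each had 2 probe sets that met the rule. The CG9062 probe sets gave 4.98-fold and 3.17-fold lower signals, those of CG17490 gave 3.82-fold and 3.97-fold, and those of CG30022 gave 2.59-fold and 2.30-fold. Probe sets of 1 gene read the same gene on the same arrays and are not separate evidence.

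In 3 genes another probe set was not a member, 4 probe sets in all, of which 1 lay wholly below the controls, beside 18.1% of all tested probe sets. CG32425 was the clearest disagreement. Its member probe set measured 7.60, 7.43 and 7.53 with sage, against 9.56, 9.40 and 9.67 in controls, a 4.06-fold fall. Another CG32425 probe set, as bright in controls, measured 9.35, 9.64 and 9.52 with sage, against 9.17, 9.36 and 9.49 in controls, with a difference of 0.16 and overlapping groups. The third CG32425 probe set was dim in both groups, at a mean of 5.20 with sage and 5.15 in controls. The transcripts of CG32425 that each probe set reads are not given in the sources used here, and the fall is that of 1 probe set of 3. The second CG5026 probe set was lower by 0.48 without overlap, at a mean of 5.25 with sage and 5.73 in controls. The second CG9270 probe set was dim, at a mean of 4.498 with sage and 4.44 in controls.

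In the gene order of the RefSeq Release 6 annotation, 6 pairs of members lay within 20 kb of each other, and 4 of these were next to each other among protein-coding genes. CG17361 and CG17359 overlap in that annotation. CG17361 averaged 6.12 ± 0.23 with sage and 8.03 ± 0.24 in controls, and CG17359 averaged 6.64 ± 0.12 with sage and 8.43 ± 0.24 in controls (SD, n = 3 each). Since the genes overlap, their signals are uncertain as separate measurements. CG4572 and CG4686 are direct neighbours, 3.03-fold and 3.06-fold lower. CG4572 measured 8.56, 8.56 and 8.64 with sage, against 10.12, 9.98 and 10.46 in controls, and CG4686 measured 8.58, 8.66 and 8.57 with sage, against 10.08, 10.01 and 10.55 in controls. The other adjacent pairs were CG31109 with CG31111, 2.40-fold and 2.10-fold lower, and CG12728 with CG32756, 5.09-fold and 4.26-fold lower. CG32095 with CG43064 and CG9393 with CG8301 were near but not adjacent.

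The genes next to members, members themselves left out, numbered 167 with a probe set of their own, taking the brightest probe set of each gene. Of these, 31 (18.6%) were called lower by limma and 5 (2.99%) higher, beside 12.2% lower and 5.6% higher among all genes. Their median difference was -0.04, beside 0.01 for all genes, and 131 of the 167 were called in neither direction.

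The median gene span was 2252 bases for members, 2939 bases for the 205 genes with other symbols that met the same limits and 1718 bases for the 5137 CG genes of the array found in RefSeq. A single annotated transcript was listed for 37 of 96 members (38.5%), for 29.8% of those genes with other symbols and for 56.1% of the CG genes. RefSeq listed a cDNA clone with the prefix LD, which marks clones of an embryonic library, for 7 member genes (7.29%) and for 60 of the CG genes of the array (1.17%). These shares are descriptions. Members were also brighter than the CG probe sets as a whole, whose median control signal was 5.56, and the part of signal in these shares was not tested.

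The same limits picked genes with other symbols too. They were met by 99 of 5667 CG probe sets (1.75%), by 210 of 7980 probe sets with another symbol (2.63%), standing for 205 genes, and by 1.84% of all tested probe sets. The median difference was -1.77 for CG members and -1.71 for the genes with other symbols. Sage replicate 2 was the lowest Sage array in 62.6% of the members and in 69.5% of the probe sets with other symbols, and control replicate 3 the highest control array in 88.9% and 94.3%.

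The mirror rule, with every Sage array at least 1 unit above every control array and the same limit on the controls, was met by 37 CG probe sets. Of these 37 raised probe sets, 25 had a control mean under the array median. The median signals of all 37 were 7.69 with sage and 5.21 in controls, and those of the members 7.07 with sage and 9.04 in controls. One rule picks low controls and the other high controls, so this contrast in control level was partly fixed by the selection. The median difference of the raised genes was 2.05, and the largest was 6.28. Sage replicate 2 was the lowest Sage array in 18.9% of the raised probe sets, and control replicate 3 the highest control array in 43.2%.

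**Figure D5:**
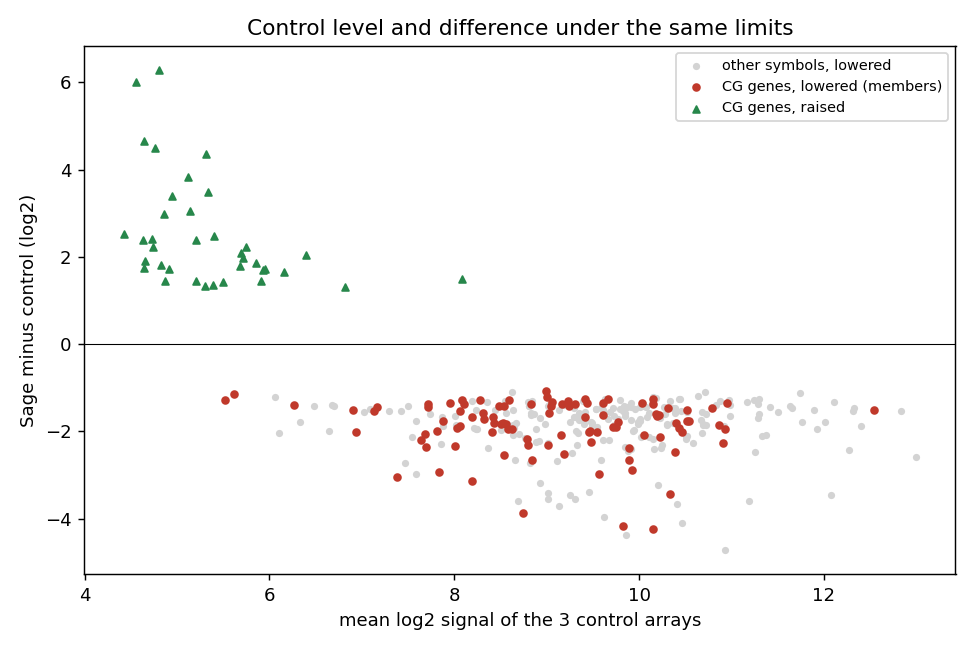
Mean log2 signal of the 3 control arrays (x axis) against the difference of Sage minus control (y axis, log2), for the 99 members (red), the 210 lowered probe sets with other symbols (grey) and the 37 raised CG probe sets (green triangles). The median control signal is 9.04 for the members, which range from 5.52 to 12.54, and 5.21 for the raised genes. The opposite directions of the rules partly fix this contrast.

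Gene lists with known roles give a setting for the members, though they were chosen with earlier results of these data known. Of 19 measured maternal and germline genes, 10 were called lower and none higher by limma (12 and 0 at an unadjusted p under 0.05), beside 12.2% and 5.6% of all genes, with a median difference of -2.48. The gene swa, needed to localise bicoid RNA, averaged 5.45 ± 0.47 with sage and 9.93 ± 0.55 in controls (SD, n = 3 each; adjusted p = 0.00139 by limma). The gene plu, a maternal regulator of early S phases, averaged 5.49 ± 0.34 with sage and 9.86 ± 0.27 in controls (SD, n = 3 each; adjusted p = 0.000608 by limma). Averaged over the list, signals were 6.26, 5.75 and 6.25 in Sage replicates 1, 2 and 3, against 8.05, 7.93 and 8.57 in control replicates 1, 2 and 3. Sage replicate 2 was thus lowest and control replicate 3 highest, as in most members and in the list means of the next paragraph.

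Of 17 measured genes of the ZAD zinc finger family of DNA-binding proteins, 5 were called lower and 1 higher (11 and 1 at an unadjusted p under 0.05), beside 12.2% and 5.6% of all genes, with a median of -0.50. The genes pita and wek were 2.79-fold and 2.68-fold lower (adjusted p = 0.00632 and 0.00289 by limma), and rgr rose 1.61-fold (adjusted p = 0.0431 by limma), a call that was lost without control replicate 2 (0.0836) or Sage replicate 1, 2 or 3 (0.0655, 0.144 and 0.164). The lower calls numbered 3 without any one of the Sage arrays. Of 8 measured MADF domain genes, hng2 and hng3 were called lower, at 2.09-fold and 2.19-fold (adjusted p = 0.0126 and 0.0153 by limma), and none higher (3 and 0 at an unadjusted p under 0.05), beside the same shares of all genes, with a median of -0.61. Without Sage replicate 1 or 3 neither passed by limma (adjusted p = 0.0557 and 0.0667 for hng2, 0.057 and 0.0745 for hng3). Without Sage replicate 2 hng3 did not pass (adjusted p = 0.0674 by limma). Averaged over the ZAD list, signals were 7.61, 7.58 and 7.60 in the Sage arrays, against 7.90, 8.06 and 8.49 in the control arrays. For the MADF list they were 7.69, 7.59 and 7.69 with sage, against 7.94, 8.12 and 8.71 in controls. Sage replicate 2 was lowest and control replicate 3 highest in both lists, by little among the Sage arrays.

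Markers of late differentiation differed among the control arrays. The mean over 6 cuticle genes was 8.61, 8.82 and 9.11 in Sage replicates 1, 2 and 3, against 7.82, 6.15 and 5.60 in control replicates 1, 2 and 3. Of the 6 cuticle genes 3 were called higher and none lower, beside 5.6% and 12.2% of all genes. Among the 3 were TwdlN and Ccp84Ae, cuticle protein genes (adjusted p = 0.0189 and 0.0109 by limma). The count of higher calls was 5 without control replicate 1, 1 without control replicate 2 or Sage replicate 1, and 0 without Sage replicate 2 or 3. The mean over 4 measured muscle genes was 11.14, 10.64 and 11.07 with sage, against 11.05, 10.71 and 8.73 in controls, and over 5 neuronal genes 8.51, 8.26 and 8.43 with sage, against 8.40, 8.17 and 6.74 in controls. By limma no gene of the muscle or neuronal list was called. At an unadjusted p under 0.05 none of the muscle genes and 1 neuronal gene, which was lower, passed, and without control replicate 1 limma called 1 neuronal gene lower. Tm2, of muscle, and Gad1, of neurons, had the largest differences of their lists (1.24 and 1.75). By the list means control replicate 3 was the lowest control array in these 3 marker lists, while it was the highest in most members. Single genes could differ from their list. Unlike the other neuronal genes, elav was highest in control replicate 3 (11.10, against 10.40 and 10.72 in control replicates 1 and 2). Its difference was -0.58. The part of these marker differences in the members' fall was not tested. Of 5 salivary gland genes 3 were called higher and none lower, also at an unadjusted p under 0.05, beside 5.6% and 12.2% of all genes. Among the 3 were sage, the overexpressed gene itself, and PH4alphaSG1, a prolyl 4-hydroxylase subunit (log2 difference 2.10, adjusted p = 0.0015 by limma). The genes fkh (0.12) and eyg (-0.20) were not called.

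Control RNAs separated the groups as well. The hybridisation controls were higher on the Sage arrays by 0.33 (Cre) to 1.39 (BioB), and the labelling controls had differences from -0.66 (Dap) to -0.21 (Lys), with no overlap in any of the 8. The labelling controls were dim, at means of 4.39 (Lys) to 5.43 (Dap) on the Sage arrays and 4.60 to 6.09 on the control arrays. The difference of 3′ minus 5′ probe sets was larger with sage, without overlap, in 4 of 5 comparisons of actin, GAPDH and eIF-4a probe sets, by 0.43 to 0.99, and overlapped in the other (-0.17). Handling and group cannot be told apart for these measures, and their part in the members' differences was not tested.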

How the data were processed

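Per the labels' protocols, total RNA of sorted embryos was extracted with TriZol and labelled with an Affymetrix kit that starts from the 3′ end. The table deposited by the authors holds a log2 signal for each probe set and array. The submitters' processing notes name RMA and Partek without versions. RMA as usually run equalises the arrays and compresses differences near background. The authors' test and genome build are not given in the sources used here, so no coordinates are printed.

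The table has 18952 probe sets, and the 183 of control RNAs stayed out of the tests. The platform annotation named 1 gene for 13647, several for 402 and none for 4720, and 13544 symbols were updated through RefSeq Release 6. Levels of different probe sets are not comparable per molecule. The main test was limma 3.58.1 (R 4.3.3) on the log2 values, Sage minus control, two-sided, no covariate, Benjamini-Hochberg over all tested probe sets at 0.05, tested on simulated data. Lists and neighbours used the brightest probe set per gene. Figures used matplotlib.

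The members, lists and rules were chosen with earlier results of these data known. Named were the members with the 12 largest gaps, those nearest each limit inside and outside, genes with other probe sets, neighbouring members and up to 4 genes per list. Members with a RefSeq synonym, the dimmest and brightest members, CG17129, CG31674 and genes with 2 member probe sets were added after values were seen. Protein and promoter sequences were not used here. Replicate numbers did not pair the arrays, and alternatives are given below.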

Additional observations from a re-analysis of the deposited data

Results flagged for a closer look

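Probe sets that name several genes or none enter no comparison above, and 36 of them met both limits downward. Of these, 12 named several genes, with a median difference of -1.52 and a control median of 9.37, and 24 named no gene, with a median difference of -1.66 and a control median of 9.90. The widest difference was -3.08 among those naming several genes and -3.03 among those naming none.

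The hybridisation controls, RNAs of bacterial and phage origin that do not come from the embryo, were above their level in the control group. Their differences of Sage minus control were 1.39 (BioB), 0.95 (BioC), 1.14 (BioD) and 0.33 (Cre), with means of 9.12, 10.33, 12.26 and 13.80 on the Sage arrays and 7.73, 9.39, 11.12 and 13.47 on the control arrays.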

How the results depend on the processing

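No member reversed in any of the 11 alternative fits that held it, of which the fit without dim probe sets held 96. In fits on the deposited values the rule itself fixed that sign. All 132 values of the 12 leading members stayed within that gene's own SD (root mean square of its SDs in both groups) of those reported. Leaving out 1 of 3 arrays cannot exceed that SD, and the block, prior and dim-signal fits leave these differences unchanged. Only median centring and quantile normalization could have given another outcome. Of the SDs of these 12 genes the widest was that of CG3679, whose difference was -3.77 without Sage replicate 2, against -4.24. The members' median difference ran from -1.86 to -1.65 when an array was left out. Members called lower numbered 98 or 99 with an array left out and 96 without dim probe sets. Members of the rule numbered 264 at a gap of 0.5, 41 at a gap of 1.5 and 44 at a control range of 0.4, against 85 with median centring, 92 with quantile normalization, 95 with 1 probe set per gene, and 101 to 147 with an array left out. Leaving out an array can only keep or add members, so that direction was fixed in advance. Over all probe sets, lower calls ran from 934 to 2035 and higher calls from 266 to 1276 with an array left out, partly since such fits have fewer arrays. With the replicate number as a block 1057 were lower and 341 higher, and all 99 members were still called. Same-numbered arrays correlated in their deviations at -0.13, -0.07 and -0.25, so the numbers were not taken as pairs. Alternatives for the gene lists were added after the data were seen, and under the block the counts of lower calls were 0 for MADF and 2 for ZAD genes, and of higher calls 0 for cuticle genes. The range over 3 arrays is a coarse measure of spread, and signals below about the array median compress differences.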
